A study of Mus musculus with 14 samples.

Results

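The chromatin of 9 germline genes was followed in mouse embryonic stem cells before and after knockdown of Smarcb1. The genes were taken as a named list (Dazl, Ddx4, Sycp3, Mael, Tdrd1, Stk31, Slc25a31, Smc1b and Stra8), 9 of 21938 protein-coding genes and of 55413 annotated genes. For each gene, peaks and islands of 5 antibodies were counted and placed in control and kd cells. The promoter, defined as 1 kb on either side of the annotated gene start (TSS), was kept apart from the gene body, which ran from the end of that window to the end of the gene.

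Germline genes act in sperm, egg and their precursors and are kept silent in most other cells. In embryonic stem cells their promoters, often rich in CpG, are held down by several layers. Among these are DNA methylation, H3K9 methylation and a variant Polycomb complex that contains E2f6, Mga and Max and deposits ubiquitin on histone H2A. Trimethylation of H3K27 is placed by Polycomb repressive complex 2 (PRC2), whose enzyme is Ezh2, whereas H3K4me3 marks gene starts open to transcription and H3K27ac marks active promoters and enhancers. The BAF complex, an ATP-driven chromatin remodeler with Smarca4 as its motor and Smarcb1 as a core subunit, counteracts Polycomb at many sites.

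Cells were of the line 81K1, made from 1 modified clone of the embryonic stem cell line OG2. Both conditions carried the same cassette in the Rosa26 locus, which expresses an anti-Smarcb1 shRNA in the presence of doxycycline. Control cells stayed untreated, and Smarcb1 kd cells received 1 µg/ml doxycycline every day and were fixed 72 h after the start of induction. 1 library was made per antibody (Smarca4, Ezh2, H3K27me3, H3K27ac, H3K4me3) and condition, which gave 10 lists of 5364 to 79014 regions. Because each side of a comparison is a single library, differences between control and kd are given as counts without a test. Doxycycline treatment and the knockdown cannot be told apart in this design. The degree of the knockdown cannot be read from lists of regions, and the depth of the libraries is unknown here. The label of embryonic stem cells was checked on marker promoters. Pou5f1, Sox2, Nanog, Zfp42 and Dppa4 had H3K4me3 and H3K27ac in both conditions. Esrrb had neither mark at its annotated start and carried H3K27me3 there. Gata4, Gata6, T and Pax6, regulators of differentiated cells, all carried H3K27me3 and had no H3K27ac.

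The promoter sequences of 6 members are shown because the calls below are read against them. 5 of these are the members with the palindrome CACGTG, the E-box to which Mga and Max bind, from 250 bases before to 50 bases after the start. Stra8 is the member with neither CACGTG nor GCGGGA, a core of the E2F site, anywhere in its promoter window. Each line runs 5′ to 3′ on the strand of the gene, from 230 bases before the start to base 30 of the gene, in GRCm38. Capitals mark CACGTG, and GCGGGA or its reverse complement TCCCGC. The stretches are chr10:88459339-88459598 (plus strand) for Sycp3, chr1:166238718-166238977 (minus strand) for Mael, chr19:56825979-56826238 (plus) for Tdrd1, chr6:49395374-49395633 (plus) for Stk31, chr3:40708625-40708884 (plus) for Slc25a31 and chr6:34919933-34920192 (plus) for Stra8.
Sycp3: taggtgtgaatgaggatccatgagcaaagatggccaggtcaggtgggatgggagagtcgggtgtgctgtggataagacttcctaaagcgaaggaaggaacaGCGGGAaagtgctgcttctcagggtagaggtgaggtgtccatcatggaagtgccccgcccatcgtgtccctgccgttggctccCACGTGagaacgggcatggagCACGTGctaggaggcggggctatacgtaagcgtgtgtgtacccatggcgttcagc
Mael: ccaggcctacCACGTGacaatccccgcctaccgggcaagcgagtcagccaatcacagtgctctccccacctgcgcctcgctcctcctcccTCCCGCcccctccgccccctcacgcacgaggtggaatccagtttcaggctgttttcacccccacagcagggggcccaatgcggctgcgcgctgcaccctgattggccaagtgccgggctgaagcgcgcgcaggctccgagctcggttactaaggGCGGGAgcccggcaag
Tdrd1: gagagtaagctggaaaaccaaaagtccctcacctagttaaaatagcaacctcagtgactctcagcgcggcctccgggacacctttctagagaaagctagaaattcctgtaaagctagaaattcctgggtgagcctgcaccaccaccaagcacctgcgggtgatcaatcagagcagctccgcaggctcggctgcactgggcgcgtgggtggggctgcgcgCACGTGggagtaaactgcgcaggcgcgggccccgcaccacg
Stk31: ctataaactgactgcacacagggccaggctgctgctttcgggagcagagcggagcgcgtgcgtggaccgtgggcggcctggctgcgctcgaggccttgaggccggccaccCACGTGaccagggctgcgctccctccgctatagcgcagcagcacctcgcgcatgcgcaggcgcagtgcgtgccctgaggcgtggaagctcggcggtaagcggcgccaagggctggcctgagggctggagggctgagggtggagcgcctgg
Slc25a31: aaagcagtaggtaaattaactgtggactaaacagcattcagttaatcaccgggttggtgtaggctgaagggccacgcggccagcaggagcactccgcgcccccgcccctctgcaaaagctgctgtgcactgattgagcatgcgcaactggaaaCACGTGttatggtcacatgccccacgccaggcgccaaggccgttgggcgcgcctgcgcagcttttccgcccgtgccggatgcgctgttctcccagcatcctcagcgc
Stra8: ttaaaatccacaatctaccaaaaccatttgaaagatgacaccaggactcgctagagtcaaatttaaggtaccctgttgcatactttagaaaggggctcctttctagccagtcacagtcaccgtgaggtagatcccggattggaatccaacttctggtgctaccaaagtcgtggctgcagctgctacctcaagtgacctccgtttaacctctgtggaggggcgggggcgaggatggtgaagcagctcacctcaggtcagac

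CACGTG lay in this 300 base window in 5 of 9 members, compared with 7.75% of all protein-coding promoters and 24.5% of 49 other germline genes. Sycp3 held it at 2 places, which began 46 and 25 bases before the start. In Tdrd1 it began 11 bases before the start, in Slc25a31 77, in Stk31 120 and in Mael 220. GCGGGA, read on both strands, was found in 5 of 9 members (Ddx4, Sycp3, Mael, Slc25a31, Smc1b) and in 24.0% of all promoters. Both motifs stood together in Sycp3, Mael and Slc25a31, that is in 3 of 9 members compared with 2.52% of all promoters. The motifs share no bases in these promoters. Over the full promoter window, 7 of 9 members held CACGTG compared with 27.5% of all, and 6 of 9 held GCGGGA compared with 55.4%. The ratio of observed to expected CpG had a median of 0.59 in the members and 0.47 over all promoters. It was highest in Dazl (0.76) and lowest in Stra8 (0.29), and 3 members (Dazl, Ddx4, Mael) reached 0.6, compared with 33.9% of all promoters.

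Smarca4 was called at the promoters of 9 of 9 members in control cells and at the same 9 after kd. The share of all protein-coding promoters with a call was 62.5% in control and 63.5% in kd cells. It was 98.0% and 99.2% among promoters with a CpG ratio of at least 0.6, and 97.5% and 95.0% among 40 homeobox genes. A call at every member was thus near the shares of these 2 classes. None of the members was called in one condition alone, compared with 2.69% of all promoters for control alone and 3.69% for kd alone. In lists of equal length Slc25a31 had no control call, and with a window of 0.5 kb Stra8 had no kd call. Where the control and kd peaks also had to overlap by 50% of each, 4 of 9 members counted as called in one condition alone. The shares above do not apply to that rule, and its share of all promoters is not given here. In control cells the middle of the strongest Smarca4 peak lay downstream of the start in 9 of 9 members, at a median of 154 bp, compared with 78.8% of all called promoters. After kd it lay downstream in 8 of 9, with Stk31 as the exception. The count depends on the annotated start. RefSeq places the start of Stra8 785 bp further downstream, and the middle of its Smarca4 peak then lay upstream of the start in both conditions, which left 8 of 9 members in control and 7 of 9 in kd cells. The peaks themselves were narrow, with a median width of 323 bp in control and 601 bp in kd cells over the members, compared with 869 and 817 bp over all called promoters.

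The strength of a peak was read as the percentage of peaks in the same list with a lower MACS2 score, because scores are not scaled between libraries. On this measure the Smarca4 peaks of the members ranked low in control cells, with a median of 40.8%, compared with 85.9% over the 13117 protein-coding promoters called in both conditions. After kd the median of the members was 72.3%, compared with 83.8% over those promoters. The peak ranked higher in kd than in control cells at 7 of 9 members, compared with 47.3% of all, 45.2% of the other germline genes and 29.7% of homeobox genes. Tdrd1 and Stk31 ranked lower. The largest differences in rank were at Ddx4 (from 16.5% to 85.3%), Mael (from 23.3% to 87.6%), Smc1b (from 40.8% to 82.4%) and Sycp3 (from 45.8% to 85.7%). The smallest were at Slc25a31 (from 4.68% to 11.1%) and Tdrd1 (from 73.5% to 65.7%). The control and kd lists held 79014 and 72339 Smarca4 peaks. Of these, 9.52% and 19.8% were repeat-masked over at least 50% of their length, and the part of this in the ranks was not tested. At a score of at least 50, 5 of 9 members kept a call in control and 7 of 9 in kd cells. The share of all promoters at that score is not given here, so these counts stand without a background.

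**Figure D1:**
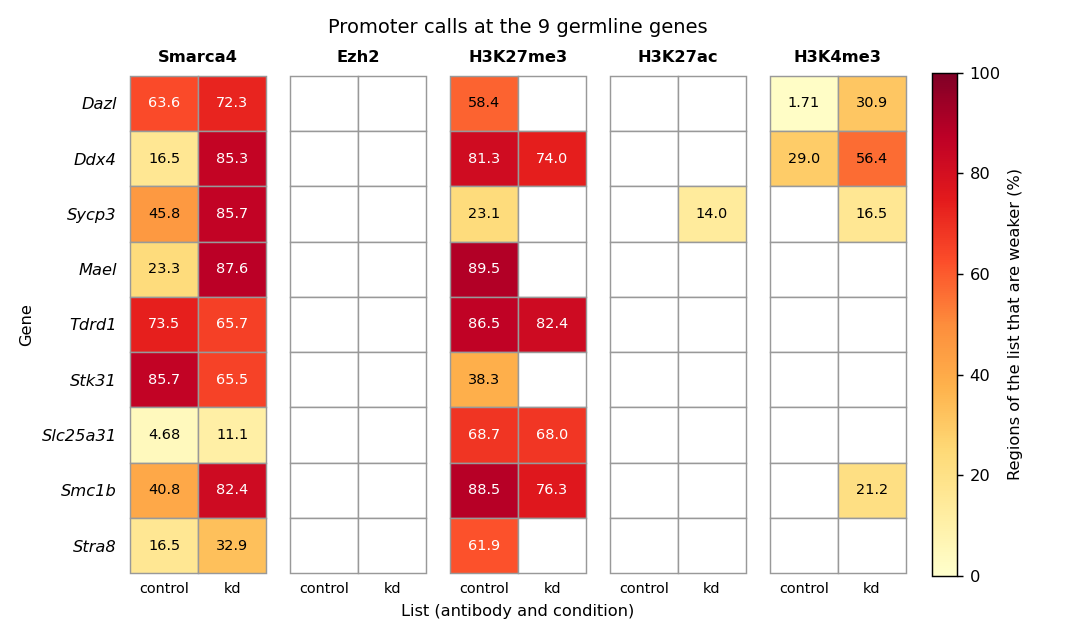
Promoter calls at the 9 germline genes (rows) in the 10 lists (columns, control and kd for each antibody). A coloured cell holds at least 1 region within 1 kb of the start, and its number and colour give the percentage of regions in that list that are weaker than the strongest one there, while white cells hold no region. The Smarca4 columns are filled for 9 of 9 genes, the Ezh2 columns are empty, and the H3K27me3 column goes from 9 to 4 genes.

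H3K27me3 covered the promoters of 9 of 9 members in control cells, compared with 34.9% of all protein-coding promoters. After kd, an island remained at 4 members (Ddx4, Tdrd1, Slc25a31, Smc1b), and the share of all promoters was 29.2%. Dazl, Sycp3, Mael, Stk31 and Stra8 were called in control alone, 5 of 9 compared with 8.15% of all promoters. No member was called in kd alone (2.39% of all). Among promoters with H3K27me3 in control cells, 23.3% had no island after kd, compared with 5 of 9 members. Of the other germline genes with an island in control it was 8 of 34 (23.5%), near the share of all. The members were chosen with earlier results of these data known, so their count is a description only. In lists cut to equal length the members still went from 9 to 4, and the shares of all promoters in the cut lists are not given here.

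Ezh2 was called at none of the 9 promoters in either condition, whereas its shares of all promoters were 7.13% in control and 12.6% in kd cells. With calls in 1 condition at 0.283% (control alone) and 5.78% (kd alone) of promoters, 0 of 9 is near this background. The nearest Ezh2 peak to a member start was 12575 bp from Mael in control and 15167 bp in kd cells, and the distances of the other members were 27759 bp or more. Of 7662 promoters with H3K27me3 in control, 4899 had no Ezh2 peak in either list, so that this was the more frequent case. Among those 4899, 35.8% had no island after kd. Where an Ezh2 peak was called in either list, 1.19% had none. The combination of Smarca4 and H3K27me3 without Ezh2 in control cells held for 9 of 9 members, for 21 of 49 other germline genes and for 20.5% of all promoters.

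A measure added after the values had been seen asks whether an H3K27me3 island covers the start base itself. In control cells the start lay inside an island in 9 of 9 members and in 30.8% of protein-coding genes. After kd it did so in 2 of 9 members (Tdrd1 and Slc25a31) and in 23.2% of genes. Of the genes covered in control cells, 29.9% were not covered after kd, compared with 7 of 9 members. At Ddx4 and Smc1b an island stayed in the promoter window and ended short of the start, which is why the window still counted them.

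**Figure D2:**
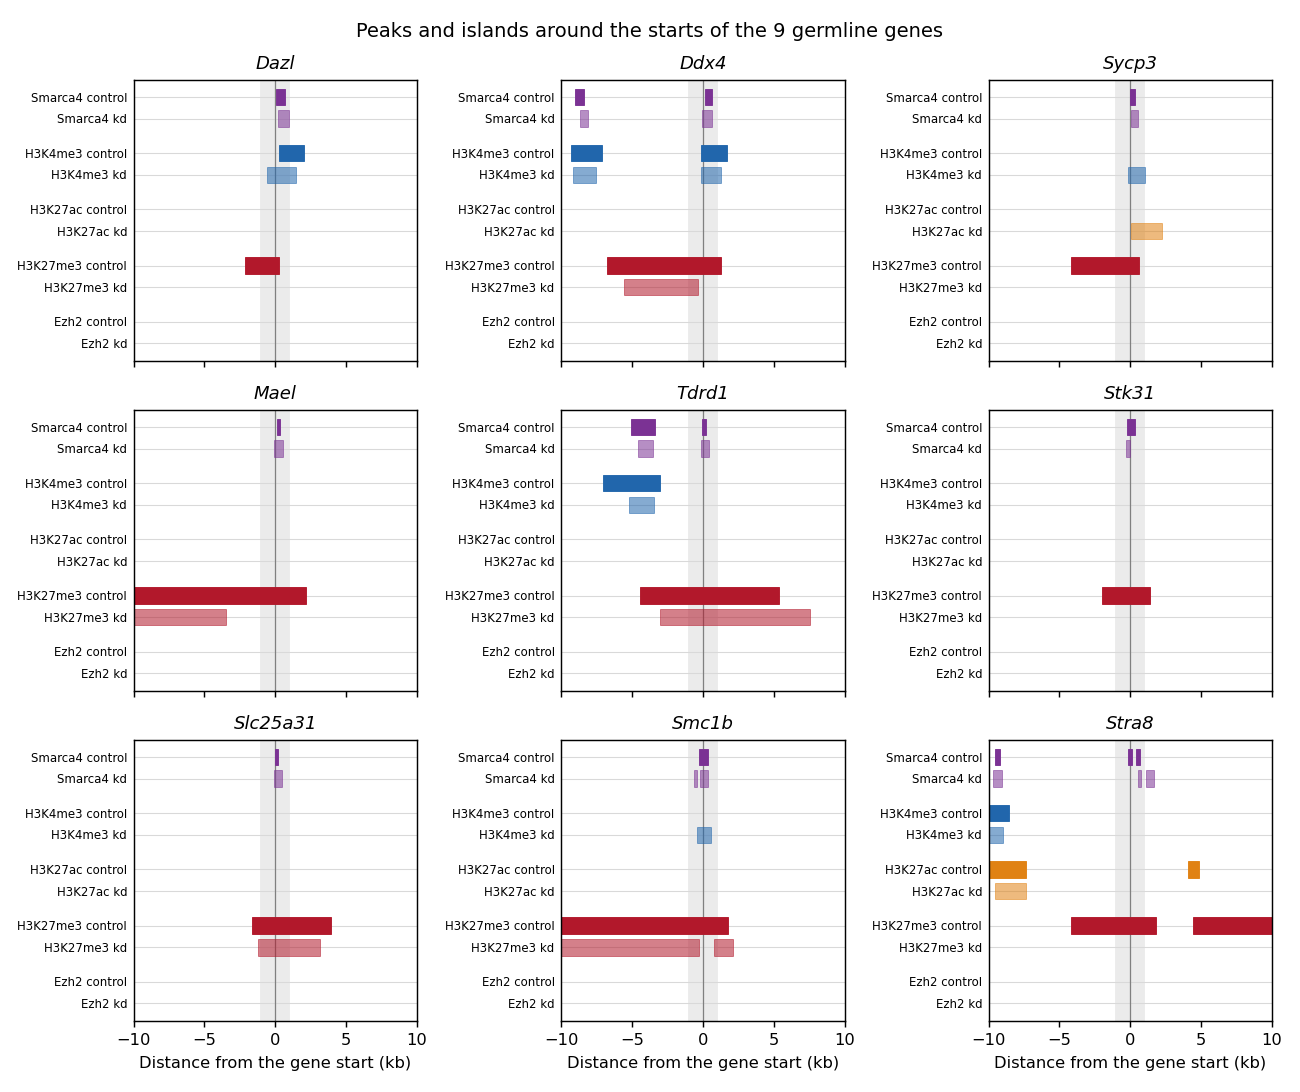
Peaks and islands from 10 kb upstream (negative) to 10 kb downstream of the start of each of the 9 genes, in kb along the direction of transcription. Full colours show control and pale colours kd lists, each antibody has a colour of its own, the grey band is the promoter window, and regions that run past 10 kb are cut off there. In kd cells the H3K27me3 bars are absent around Dazl, Sycp3, Stk31 and Stra8, end upstream of the start at Ddx4 and Mael, and leave a gap over the start at Smc1b.

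H3K4me3 was called at 2 of 9 promoters in control cells (Dazl, Ddx4) and at 4 of 9 after kd (Dazl, Ddx4, Sycp3, Smc1b). These counts stood below the shares of all promoters, 56.6% in control and 60.4% in kd cells. Sycp3 and Smc1b were called in kd alone, 2 of 9 compared with 4.59% of all promoters, and no member was called in control alone (0.779% of all). A closer background is promoters with H3K27me3 but no H3K4me3 in control and Ezh2 in neither list. Of these, 2 of 7 members had H3K4me3 in kd alone, near the 19.5% of all and 21.7% of other germline genes. Both calls were weak, since 16.5% and 21.2% of the islands in the kd list had a larger p-value. Neither remained where the kd list, the longer one, was cut to the length of the control list, nor at a stricter threshold (-log10 p of 20 or more, and 10 or more for H3K27ac). H3K27ac was called at no member in control cells and at Sycp3 after kd, 1 of 9 compared with 16.0% of all promoters in control and 30.9% in kd cells. For single conditions the shares of all promoters were 1.83% (control alone) and 16.8% (kd alone). The Sycp3 call was likewise absent in lists of equal length and at a stricter threshold.

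**Figure D3:**
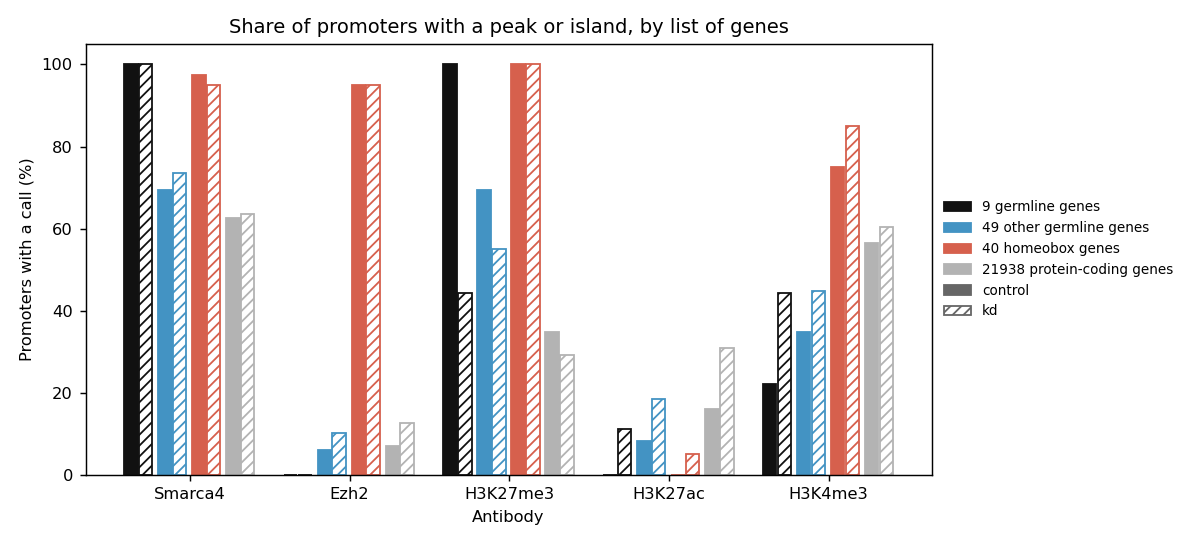
Percentage of promoters with a peak or island of each antibody (x axis) in the 9 germline genes, 49 other germline genes, 40 homeobox genes and all 21938 protein-coding genes, with filled bars for control and hatched bars for kd. H3K27me3 goes from 100% to 44.4% in the 9 genes and stays at 100% in the homeobox genes, which unlike the 9 genes have Ezh2 at 95.0% of promoters in both conditions.

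The members are described below by their roles, beginning with the RNA-binding proteins that germ cells depend on. Dazl (ENSMUSG00000010592.9, chr17:50279395-50293636, minus strand) binds mRNAs and promotes their translation in germ cells. Its Smarca4 peak had a score of 86 in control and 111 in kd cells and was centred 340 and 610 bp into the gene, in an intron. An H3K27me3 island of 2400 bp ran from 2164 bp upstream to 235 bp downstream of the start in control cells, and none was found within 10 kb of the start after kd. H3K4me3 began where that island ended in control cells, covering 236 to 2035 bp downstream. After kd it spanned the start, from 564 bp upstream to 1435 bp downstream. The strength of this H3K4me3 island (-log10 of the authors' p-value) was 10.4 in control and 25.5 in kd cells, and weaker islands made up 1.71% and 30.9% of the lists.

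Ddx4 (ENSMUSG00000021758.14, chr13:112598333-112652475, minus strand) is the germ cell RNA helicase known as Vasa. Its Smarca4 peak covered 129 to 623 bp downstream of the start with a score of 38 in control cells, and reached from 55 bp upstream to 647 bp downstream with a score of 182 after kd. H3K27me3 formed an island of 8000 bp over the start in control cells and of 5200 bp after kd, which lay wholly upstream and ended 326 bp before the start. The H3K4me3 island began 125 bp upstream in both conditions, and its -log10 p was 24.1 in control and 83.1 in kd cells. Ddx4 was thus the only member with Smarca4, H3K27me3 and H3K4me3 in both conditions, a set of calls shared by 4.46% of protein-coding promoters.

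3 members belong to the piRNA pathway, in which small RNAs silence transposons in germ cells, or carry the Tudor domain typical of its proteins. Mael (ENSMUSG00000040629.8, chr1:166201201-166238747, minus strand) encodes maelstrom, which is needed for transposon silencing. It had the widest H3K27me3 island of the members, 29200 bp with a p-value listed as 0, of which most lay upstream. After kd no island covered the start, and the nearest island ended 3454 bp away. Its Smarca4 peak was 220 bp wide with a score of 43 in control cells, and 652 bp wide with a score of 204 after kd. No H3K4me3 or H3K27ac was called there.

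Tdrd1 (ENSMUSG00000025081.13, chr19:56826209-56870012, plus strand) is a Tudor scaffold protein that binds Piwi proteins. It kept its promoter island, which spanned 9800 bp in control and 10600 bp in kd cells. The island was longer in the kd list. Its -log10 p was 223.5 in control and 99.2 in kd cells, values that are not scaled between libraries. The rank of the island within the list was 86.5% and 82.4%. Smarca4 had a score of 110 in control and 92 in kd cells. Stk31 (ENSMUSG00000023403.14, chr6:49395604-49469501, plus strand) encodes a Tudor domain kinase of the testis. An island of 3400 bp covered its start in control cells, and none lay within 10 kb after kd. Its Smarca4 peak was the strongest of the members in control cells, with a score of 168, and covered the start. The kd peak had a score of 91 and ended 9 bp before the start. Stk31 and Tdrd1 were thus the members at which Smarca4 ranked lower after kd, one without and one with its island.

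3 members act in meiosis. Sycp3 (ENSMUSG00000020059.9, chr10:88459569-88473236, plus strand) is a structural protein of the synaptonemal complex. Its promoter differed between the lists in 3 marks. H3K27me3, an island of 4800 bp with a -log10 p of 14.9, was called in control alone. H3K4me3 (1200 bp, from 168 bp upstream to 1031 bp downstream) and H3K27ac (2200 bp, from 32 to 2231 bp downstream) were called in kd alone. None of these differences in the histone marks of Sycp3 was left at the stricter threshold. Smarca4 had a score of 60 in control and 184 in kd cells. The full set of calls at Sycp3 was found at 18 protein-coding promoters, or 0.0820%. The gene overlaps Chpt1 in the annotation, and regions further into it cannot be assigned to one of the pair.

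Smc1b (ENSMUSG00000022432.7, chr15:85064689-85131964, minus strand) is the cohesin subunit of meiosis. A single H3K27me3 island of 15000 bp covered its start in control cells. After kd there were 2 islands, one of 11000 bp that ended 237 bp before the start and one of 1400 bp that began 764 bp after it. The H3K4me3 island called in kd alone lay over that gap, from 436 bp upstream to 563 bp downstream. Smarca4 had a score of 57 in control and 161 in kd cells at the start, and a second peak with a score of 42 was called in the kd list alone, 385 to 617 bp upstream. Ribc2 starts 114 bp from Smc1b, so that these promoter calls belong to both genes.

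Stra8 (ENSMUSG00000029848.11, chr6:34920163-34939344, plus strand) is induced by retinoic acid and drives entry into meiosis. It carried 4 H3K27me3 islands in control cells, one of 6000 bp over the start and 3 in the gene body. None remained after kd, and the nearest island was 63238 bp away. Smarca4 was weak, with 2 control peaks of scores 18 and 38 and 1 kd peak of score 47 in the promoter window, and a kd peak of score 49 began 1104 bp downstream. The annotation gives 4 starts for the gene. With windows around all of them, the kd peak further downstream counted as a promoter peak too, so that Stra8 had 2 in kd cells, and the numbers of members with a promoter call stayed as given.

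Slc25a31 (ENSMUSG00000069041.8, chr3:40708855-40726096, plus strand) encodes an ADP/ATP carrier of the mitochondria in male germ cells. Its calls were alike in both conditions. The H3K27me3 island was 5600 bp wide in control and 4400 bp in kd cells and covered the start in both. Smarca4 had the weakest promoter peak of the members in the kd list, with a score of 30, and a score of 25 in control cells. Tdrd1 and Slc25a31 shared their set of calls with 1.35% of protein-coding promoters. Mael, Stk31 and Stra8 shared theirs, with Smarca4 in both conditions and H3K27me3 in control, with 0.483%.

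**Figure D4:**
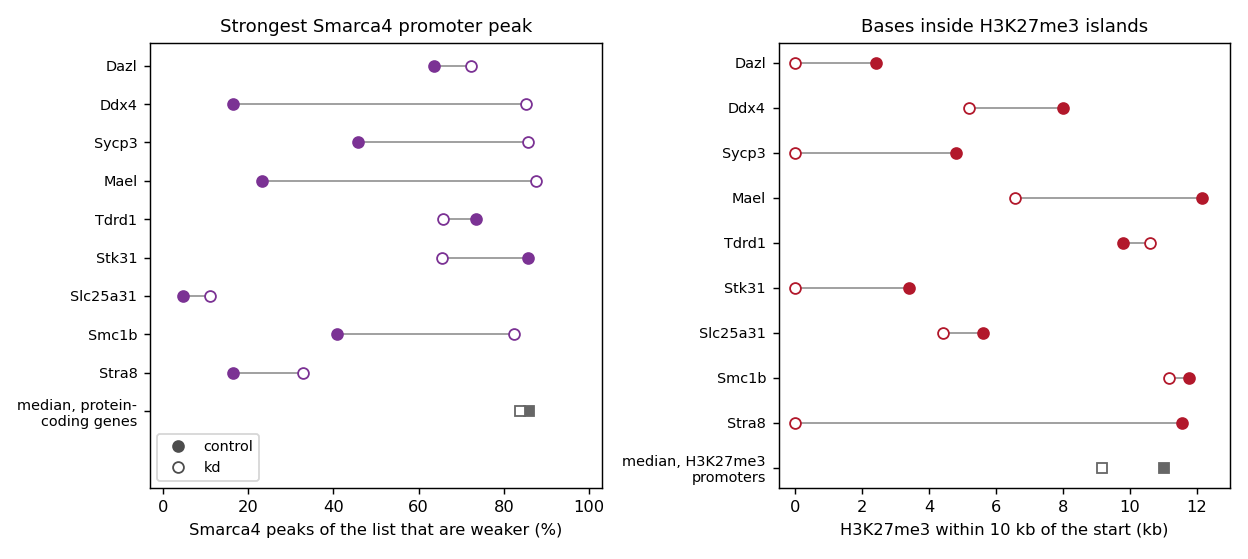
Left, percentage of Smarca4 peaks in the list that are weaker than the strongest promoter peak of each gene. Right, length within 10 kb of the start that lies inside H3K27me3 islands, in kb. Filled points are control and open points kd, and squares are medians over 13117 protein-coding promoters called in both conditions (left) and 7662 promoters with H3K27me3 in control (right). Open points lie to the right of filled ones at 7 of 9 genes on the left, and to the left of them at 8 of 9 on the right.

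Measured as the length inside islands within 10 kb of the start, H3K27me3 was less extended after kd at 8 of 9 members. It was 0 after kd at Dazl (2400 bp in control), Sycp3 (4800 bp), Stk31 (3400 bp) and Stra8 (11563 bp). Mael went from 12147 to 6547 bp, Ddx4 from 8000 to 5200 bp, Slc25a31 from 5600 to 4400 bp and Smc1b from 11764 to 11164 bp. Tdrd1 went from 9800 to 10600 bp. The median of the members was 8000 bp in control and 4400 bp in kd cells, compared with 11027 and 9171.5 bp over the 7662 protein-coding promoters with H3K27me3 in control. The share of these promoters with a shorter length after kd is not given here, so the count of 8 of 9 stands without a background. The whole H3K27me3 list also covered less of the genome after kd, 145 Mb compared with 195 Mb in control, and its part in these values was not tested. In control cells the islands without a counterpart in the window after kd had a median rank of 58.4% within their list at the 5 members and 50.4% over all protein-coding promoters. Where an island was still called after kd, the medians were 83.9% and 86.1%. Mael (89.5%) was the one member of the former kind that ranked above all 4 of the latter.

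The motifs were also read against the calls. The strongest Smarca4 promoter peak held CACGTG at 4 of 9 members in control (Dazl, Ddx4, Tdrd1, Stk31) and at 5 of 9 in kd cells, with Slc25a31 added. Over all called promoters, with wider peaks, it did so at 2874 of 13708 in control and 2854 of 13926 in kd cells. Of the members with CACGTG close to the start, Sycp3, Mael and Stk31 were without H3K27me3 after kd, and Tdrd1 and Slc25a31 were not. Of those without it, Dazl and Stra8 had no island after kd, and Ddx4 and Smc1b had one. A match to these letters is a description of the sequence, and no binding of the factors was measured.

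Regions in the gene bodies were few. Smarca4 was called in 1 of 9 gene bodies in control (Stk31, 2 peaks) and in 2 of 9 in kd cells (Smc1b, Stra8), compared with 41.1% and 40.4% of 21219 protein-coding gene bodies. Ezh2 was called in none (7.75% of all in control and 5.25% in kd). H3K27me3 was called in 2 gene bodies in control (Tdrd1 and Stra8, 4 islands) and in 1 after kd (Tdrd1), compared with 19.1% and 14.3%. The Tdrd1 island lay at the end of the gene and ran past it. H3K27ac was called in 3 gene bodies in control (Stk31, Smc1b, Stra8) and in 2 after kd (Stk31, Smc1b), compared with 22.9% and 31.8%. H3K4me3 was called in Smc1b alone in both conditions, compared with 17.8% and 22.7% of all.

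Of the H3K27ac islands in these gene bodies, 3 of 4 in control and 3 of 3 in kd cells were repeat-masked over at least 50% of their length, a share near that of all H3K27ac islands (79.1% in control and 74.1% in kd). An intronic H3K27ac island of Smc1b, about 46 kb into the gene, was 7000 bp wide in control and 6400 bp in kd cells, of which 95.7% and 100% were repeat-masked. H3K4me3 lay there too, over 2200 bp in control and 6400 bp in kd cells. The H3K27ac islands of Stk31 were repeat-masked over 99.3% and 99.2% of their length. Reads in repeats cannot always be assigned to one copy. The H3K27ac island of 800 bp within Stra8, called in control alone, was repeat-masked over 45.0%.

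The 49 other germline genes, in lists for meiosis, the piRNA pathway and germ cell regulators, were counted by the same rule. H3K27me3 was called at 34 promoters in control and 27 in kd cells, with 8 in control alone and 1 in kd alone. H3K4me3 was called at 17 and 22, H3K27ac at 4 and 9, Ezh2 at 3 and 5, and Smarca4 at 34 and 36. Of the 22 with a call in one condition alone for an antibody other than Smarca4, the first 12 in alphabetical order are named here. Hormad1 (meiotic chromosome axis), Piwil2 and Piwil4 (Piwi proteins) and Pld6 (piRNA processing) had H3K27me3 in control alone. Rad21l, a meiotic cohesin subunit, had it in kd alone. Dnd1 (RNA-binding) and Henmt1 (piRNA methylation) had H3K4me3 in kd alone, and Meioc in control alone. Dmc1 (meiotic recombinase) and Hormad2 had H3K27ac in kd alone, Piwil1 in control alone, and Mei1 had Ezh2 in kd alone. H3K27me3 in control alone together with H3K4me3 in kd alone was found at 1 of the 49, and at Sycp3 alone among the 9 members. Over all 21938 protein-coding promoters it was found at 106.

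The 40 homeobox genes, classical targets of PRC2, differed from the members in some of their calls. Smarca4 (39 in control and 38 in kd cells) and H3K27ac (0 and 2) were near the members. H3K27me3 was called at 40 of 40 in both conditions and Ezh2 at 38 of 40 in both. H3K4me3 was called at 30 in control and 34 in kd cells. Of 24 genes for repressors of germline genes (subunits of the E2f6 complex, enzymes of DNA and H3K9 methylation), 21 had H3K4me3 in both conditions. H3K27ac was called at 14 of them in control and 19 in kd cells, and H3K27me3 at 10 and 5.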

How the data were processed

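Trimmed reads had been mapped to mm10 by the authors (Bowtie2, Galaxy) and reduced to unique alignments (SAMtools 1.9). MACS2 had been run for Smarca4 and Ezh2, and SICER (windows of 200 bp, gaps of 600 bp) for the 3 histone marks, on each library separately. Peaks were deposited with a MACS2 score. Islands were deposited with a SICER p-value, already below a limit set by the authors. Neither is scaled between libraries. The methods name input as background and the titles of the background samples name input. Peak names and the antibody labels of those samples name IgG. By the methods, Smarca4 and H3K27me3 came from a service company and the other antibodies from the authors' laboratory, and this cannot be told apart from the antibody. The authors' differential calls were not used. Of 14 samples, 10 gave lists, and the 4 inputs were not analysed here.

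Regions were joined to genes of GENCODE M21 on GRCm38 (the methods name a later release) by an overlap of at least 1 bp, with Python 3.11.15, NumPy 2.4.6, pysam 0.24.0 and matplotlib 3.10.9. A region that touched a promoter window (2001 bp around the 5′ end of the gene) was not counted again in the gene body. Genes with no body beyond that window were left out of gene body shares. A p-value listed as 0 was ranked as strongest. Sequence and repeat-masked (lower-case) bases were read from the RefSeq copy of GRCm38. No p-value was computed. The counting was tested on simulated data. Named genes were the 9 members, genes starting within 1 kb of them, and at most 12 of the other germline genes in alphabetical order. The members and lists were chosen with earlier results of these data known.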

Additional observations from a re-analysis of the deposited data

How the results depend on the processing

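The H3K27me3 promoter counts of the members, 9 in control and 4 in kd cells, changed little with most choices. Control gave 8 under stricter limits and 9 otherwise, and kd gave 4 in all settings but one. With the start base alone, chosen after seeing the data, kd gave 2. That setting also gave 0 for H3K27ac in kd, 1 for H3K4me3 in control, and for Smarca4 6 in control and 5 in kd. A minimum score of 50 for peaks and a minimum -log10 p of 10 (H3K27ac) or 20 (H3K27me3, H3K4me3) for islands gave 5 Smarca4 promoters in control, 1 H3K4me3 promoter in control and 2 in kd, and 0 H3K27ac promoters in kd. In gene bodies it gave 1 region of H3K27me3 and 1 of Smarca4 in control, and 0 of Smarca4 in kd cells. Lists of equal length gave 2 H3K4me3 and 0 H3K27ac promoters in kd, 8 Smarca4 promoters in control, and 1 Smarca4 region in control gene bodies. Regions under 50% repeat-masked left 1 H3K27ac region in control and 0 in kd, 0 of H3K4me3 in both, and 1 of Smarca4 in both. Any annotated start, and likewise a window of 2 kb, gave 1 Smarca4 gene body region in kd. A window of 0.5 kb gave 2 gene body regions of H3K27me3 in kd, and 8 Smarca4 promoters in kd. An overlap of at least 200 bp moved 0 of 20 counts. Where control and kd regions had to overlap by 50% of each, 4 members counted as called by Smarca4 in one condition alone, against 0. Except for H3K27me3 on the start base, no share of all promoters is given for these other settings. Beyond what the settings themselves remove, the cause was not tested. No paired analysis was possible because each antibody and condition had 1 library, and for the same reason no replicate could be left out.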
